A study of Mus musculus with 12 samples.

Results

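Collagen chains and the genes of the basement membrane and its neighbouring matrix were followed in sorted support cells from mouse embryonic gonads. Members were taken by gene symbol: all collagen chains, laminin alpha, beta and gamma chains, the nidogens, the link proteins (Hapln1 to Hapln4), and Fn1, Hspg2, Agrn, Sparc, Epyc, Vcan, Bgn and Tnc. Of 45037 probe sets in the deposited table, 136 carried such a symbol alone, from 66 of the 18193 genes named there. Of these, 91 probe sets from 47 genes held values on all 12 arrays, and the other 45 were blank and are not analysed here.

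Support cells are the lineage that forms Sertoli cells in the testis and pregranulosa cells in the ovary, and they had been sorted by flow cytometry from gonads of 1 strain, FVB.Cg-Tg(Tyr)3412ARpw with the transgene Tg(Sry-EGFP)92EI. That strain carries an Sry-EGFP reporter, which both sexes and both days therefore share. The 4 groups were XX cells at embryonic day 11.5 (E11.5), XX cells at E12.5, XY cells at E11.5 and XY cells at E12.5, with 3 pools of sorted cells in each and 1 Affymetrix mouse array per pool. The study asked which genes act in gonadal sex determination, and the design gives 5 comparisons: sex (XY against XX) on either day, day (E12.5 against E11.5) in either sex, and whether the sex difference changed from 1 day to the next (the interaction of sex and day). Comparisons that share arrays are not independent of each other: XY against XX at E12.5 and the change over the day in XY both use the XY arrays of E12.5, and the interaction is built from all 4 groups. The day changes in XX and in XY compare no array in common. Even so, all 5 tests of a probe set use the same estimate of its spread, drawn from all 12 arrays. Leaving out an array can therefore move the p-value of a comparison that does not include it. Whether each pool had its own litter is not in the labels, and every p-value rests on the scatter among pools, which may be partly technical.

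A basement membrane is a sheet of laminin trimers and type IV collagen networks, tied together by nidogens and heparan sulfate proteoglycans, on which epithelial cells sit. Collagens outside that sheet form fibrils, decorate fibrils (the FACIT class, fibril-associated collagens with interrupted triple helices), build beaded microfilaments (type VI) or span the cell membrane. In the fetal testis, Sertoli cells come to lie on a basement membrane that encloses the testis cords, whereas the fetal ovary forms no such cords at these days.

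Values are log2 signals per probe set, so a difference of 1 is a 2-fold change of signal, and signals of different probe sets are not compared with each other. Each gene is given by its brightest probe set (the highest mean over the 12 arrays) unless a dimmer one is named. A probe set was called at an adjusted p under 0.05 in limma over all 44238 probe sets tested, and "higher" and "lower" calls use that rule. The background range came from 5 probe sets of the Y-linked genes Eif2s3y, Kdm5d or Uty, those called between the sexes at both days. They read 3.33 to 5.17 on the XX arrays, and a fold against a group mean in or below that range is written as "at least". Background may lie higher at other probe sets, so other folds may also be lower bounds. In pooled cells, fewer cells of a type and less RNA per cell cannot be told apart.

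The labelled sexes matched their markers on all 12 arrays, with Xist at 12.8 to 12.95 in XX and 6.56 to 7.87 in XY. The mean of 8 Sertoli markers was 10.67 to 11 in XY at E12.5 and 6.68 to 7.09 in XX at both days, and the mean of 7 pregranulosa markers was 11.43 to 11.6 in XX at E12.5 and 7.57 to 7.76 in XY. At E11.5 the XY pools differed among themselves in the Sertoli markers, which averaged 9.61, 8.96 and 8.38 in pools 1, 2 and 3. Pool 2 of XX at E11.5 stood apart: 10 endothelial markers averaged 8.43 there against 6.17 to 6.99 on the other 11 arrays, and 6 mesenchyme markers averaged 9.81 against 7.44 to 8.45. The 8 macrophage markers averaged 8.39 in that pool, 7.97 in pool 1 and 6.85 in pool 3. They also moved with sex and day: they averaged 7.55 to 7.94 in XY at E12.5, 7.10 to 7.22 in XX at E12.5 and 6.52 to 6.94 in XY at E11.5, without overlap. None of the 8 was called by sex at E12.5, and 1, Cd68, was called over the day in XY (1.33, limma adjusted p = 0.0492). Their part in the differences at XY E12.5 was not tested.

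Coverage of the classes was uneven. Laminins kept 9 of 10 genes, FACIT collagens 7 of 9, transmembrane collagens 4 of 4 and the nidogens 2 of 2, while type IV collagen kept only Col4a4 of 6 chains and the fibrillar collagens 6 of 11. Fn1, Hspg2, Agrn, Col1a2, Col2a1, Col9a1 and Col6a3 are among the 19 genes not analysed here. Nothing can therefore be said here of the main type IV chains, Col4a1 and Col4a2, or of perlecan (Hspg2).

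At E12.5 the RNA signal of XY and XX support cells differed in 13 of the 47 member genes. Transcripts of type IX, XIV, XXVII, XVIII and VIII collagen chains, epiphycan, versican, Sparc and laminin alpha 3 were higher in XY. Those of type VI and type XXII chains were higher in XX. In all, 19 of 91 member probe sets were called (20.9%), 15 higher and 4 lower in XY, against 7.72% of all probe sets tested (3.92% higher and 3.81% lower). The median log2 difference over the 47 genes was 0.08, beside -0.004 over all probe sets. The 3 XY values all lay beyond the 3 XX values at 35 of the 91 member probe sets, beside 28.6% of all probe sets.

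Col9a3, the alpha 3 chain of the FACIT collagen type IX known from cartilage fibrils, had the largest difference of the members. It read 6.90, 6.96 and 6.99 in the XX pools of E12.5 and 12.86, 13.03 and 13.07 in the XY pools. The groups were far apart and each was tight. The log2 difference was 6.04 ± 0.46 (SE), or 65.6-fold (95% interval 32.5 to 132.0, limma adjusted p = 4.59e-05), and all 3 probe sets of the gene were called. Col9a2, the alpha 2 chain of the same trimer, read 5.82, 6.26 and 6.33 in XX and 8.79, 8.30 and 8.57 in XY. Its XY values also lay clear above the XX values, with a fold of 5.35 (95% interval 3.84 to 7.44, limma adjusted p = 0.000113). The third chain of type IX collagen, Col9a1, is not analysed here.

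Col14a1, a FACIT collagen of tendon and skin fibrils, read 4.96, 7.15 and 7.67 in XX and 12.04, 11.93 and 12.51 in XY. XX pool 1 lay lowest, and no XX value came near the XY values. The fold was 47.4 with a wide 95% interval of 11.8 to 190.0 (limma adjusted p = 0.00425), and the log2 difference was 4.75 without XX E12.5 pool 1 in place of 5.57. Its dimmer probe set, near the background range in XX, was not called. Col22a1, a FACIT collagen found at tissue junctions such as that of muscle and tendon, ran the other way: it read 7.59, 8.48 and 8.09 in XX and 6.01, 5.76 and 5.93 in XY. It was 4.46-fold lower in XY (limma adjusted p = 0.00367), with the groups not overlapping, at 1 of its 3 probe sets. The other measured FACIT genes, Col12a1, Col19a1 and Col20a1, differed by -0.05 to 0.10 on the log2 scale and were not called.

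Among the other collagens higher in XY, Col27a1, a fibrillar chain with a short triple helix known from cartilage, read 7.97, 8.38 and 8.08 in XX and 11.28, 11.10 and 11.17 in XY. The values separated fully, and both probe sets of Col27a1 were called, the brighter at 8.23-fold (95% interval 5.14 to 13.2, limma adjusted p = 0.000253). Col18a1, a multiplexin of basement membranes whose end fragment is endostatin, read 10.91, 11.04 and 11.04 in XX and 13.28, 13.56 and 13.19 in XY. That made it 5.09-fold higher in XY (limma adjusted p = 0.00132), and its other probe set was also called, with a log2 difference of 3.46 ± 0.45 (SE). Col8a2, a short chain of the hexagonal network in the cornea's inner membrane, read 5.15, 6.22 and 4.68 in XX and 8.27, 9.64 and 9.31 in XY. All 3 XY values were above every XX value, and the fold was 13.2 (95% interval 6.82 to 25.7, limma adjusted p = 0.000588). Its partner chain Col8a1 read 5.74, 5.78 and 5.92 in XX and 5.78, 5.94 and 5.96 in XY, overlapping groups with no call.

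The type VI chains were the collagens that were higher in XX together. Col6a2 and Col6a1 encode chains of 1 heterotrimer, which builds beaded filaments beside basement membranes, and the 2 genes lie next to each other with no protein-coding gene between them. Col6a2 read 11.61, 11.53 and 11.99 in XX at E12.5 and 9.51, 9.64 and 8.91 in XY. Col6a1 read 11.08, 11.67 and 11.41 in XX and 9.91, 9.79 and 9.68 in XY. For both genes every XX pool exceeded every XY pool by over 1 log2 unit. Col6a2 was 5.12-fold lower in XY (95% interval 3.5 to 7.49, limma adjusted p = 0.00032; both probe sets called), and Col6a1 was 3.03-fold lower (95% interval 1.96 to 4.68, limma adjusted p = 0.00686). Col6a4, a further type VI chain, read 6.73, 6.94 and 6.52 in XX and 6.25, 6.13 and 6.03 in XY, and missed the threshold (limma adjusted p = 0.0509). Without XX E11.5 pool 2 the same difference of -0.60 passed it (adjusted p = 0.0352), as it did without XX E11.5 pool 3 or XY E11.5 pool 1. Col6a5 stayed in the background range in every group, with means of 3.78 to 3.94. Col18a1, which went the opposite way to the Col6a1 and Col6a2 pair, is separated from Col6a1 by only 2 protein-coding genes in the RefSeq annotation.

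**Figure D1:**
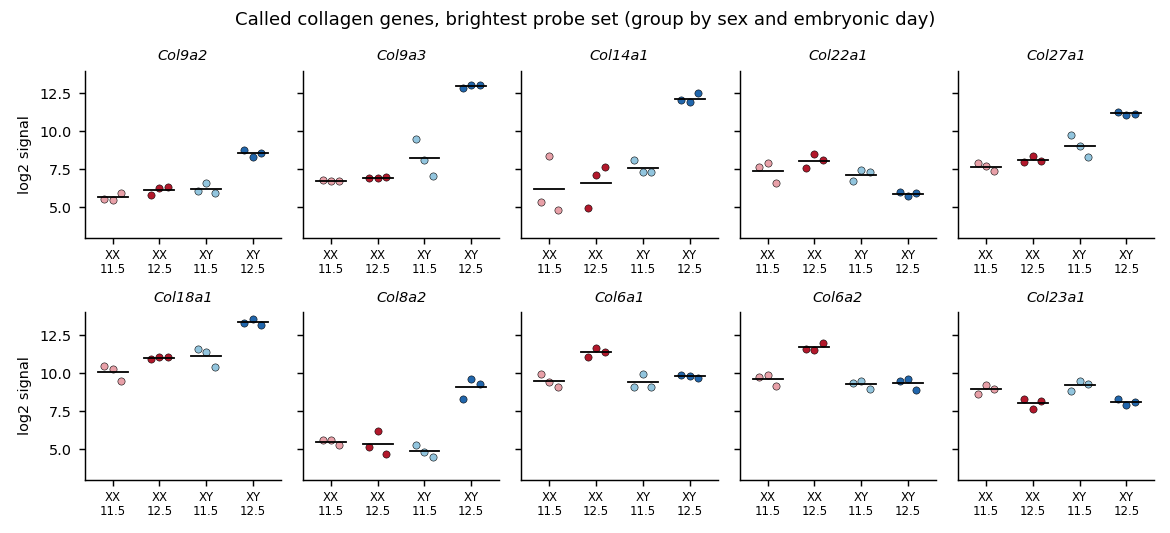
Log2 signal of 10 called collagen genes at their brightest probe set, 1 point per pool in pool order and a bar at the mean of the 3 pools, by sex and embryonic day. Col9a3, Col14a1, Col27a1, Col18a1 and Col8a2 stand highest in XY at E12.5, Col6a1 and Col6a2 stand highest in XX at E12.5, and XY E11.5 values of Col9a3 spread from 7.04 to 9.49.

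Epyc, or epiphycan, a small leucine-rich proteoglycan of growth-plate cartilage, had the smallest p-value of the members. It read 3.82, 4.30 and 3.88 in XX at E12.5 and 8.55, 8.68 and 8.93 in XY. XX values lay in the background range, so the fold is a lower bound, at least 26.4 (limma adjusted p = 5.53e-07). Bgn, the other member of that proteoglycan family, read 9.80, 9.57 and 9.63 in XX and 9.15, 8.94 and 8.91 in XY, a difference of -0.67 that was not called (limma adjusted p = 0.251) although the groups did not overlap.

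Vcan, the large hyaluronan-binding proteoglycan versican, read 6.30, 6.52 and 7.23 in XX and 9.31, 8.94 and 9.91 in XY, 6.52-fold higher (95% interval 3.18 to 13.4, limma adjusted p = 0.0061). Its 5 dimmer probe sets were not called, and their group means at E12.5 differed by at most 0.24 on the log2 scale. Sparc, a collagen-binding matricellular protein also called osteonectin, read 9.70, 10.25 and 9.97 in XX and 12.23, 12.34 and 12.30 in XY. Sparc was 4.98-fold higher in XY (95% interval 2.95 to 8.42, limma adjusted p = 0.00249), with 2 of its 3 probe sets called and the groups well apart.

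Laminins are the trimers on which a basement membrane assembles, and 1 of their 18 probe sets was called by sex, a share (5.56%) near the 7.72% of all probe sets. Lama3, the alpha chain of the epithelial anchoring laminin, read 6.05, 7.49 and 6.56 in XX and 8.22, 9.35 and 8.51 in XY, 3.98-fold higher (95% interval 2.04 to 7.78, limma adjusted p = 0.0198). XY pools lay above XX pools, but the call was lost without XX E12.5 pool 1, XX E12.5 pool 3, XY E12.5 pool 2 or XY E12.5 pool 3 (adjusted p of 0.0527 to 0.0735). The dimmer Lama3 probe set, with means of 5.66 in XX and 5.61 in XY, was not called. Lama4, an alpha chain known from vessels and muscle, read 8.30, 9.86 and 9.21 in XX and 11.90, 11.91 and 12.06 in XY. Its groups did not overlap, and the difference of 2.83 ± 0.84 (SE) was not called (limma adjusted p = 0.0723). It passed without XX E11.5 pool 2 (adjusted p = 0.0221) or without XY E11.5 pool 3 (adjusted p = 0.0478), with the difference itself the same. It also passed with a filter to brighter probe sets, array weights, 1 probe set per gene or the compared arrays alone (lowest limma adjusted p = 0.00912). The dimmer Lama4 probe set lay in the background range, with means of 4.42 in XX and 4.46 in XY. The 10 endothelial markers had a median log2 difference of 0.21 at E12.5, and their part in the Lama4 value was not tested. The other laminin chains at E12.5, Lama1, Lama5, Lamb1, Lamb2, Lamb3, Lamc1 and Lamc3, differed by -0.26 to 0.25 and were not called, and the nidogens Nid1 and Nid2, which bridge laminin and type IV collagen, differed by 0.38 and 0.18 without a call.

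**Figure D2:**
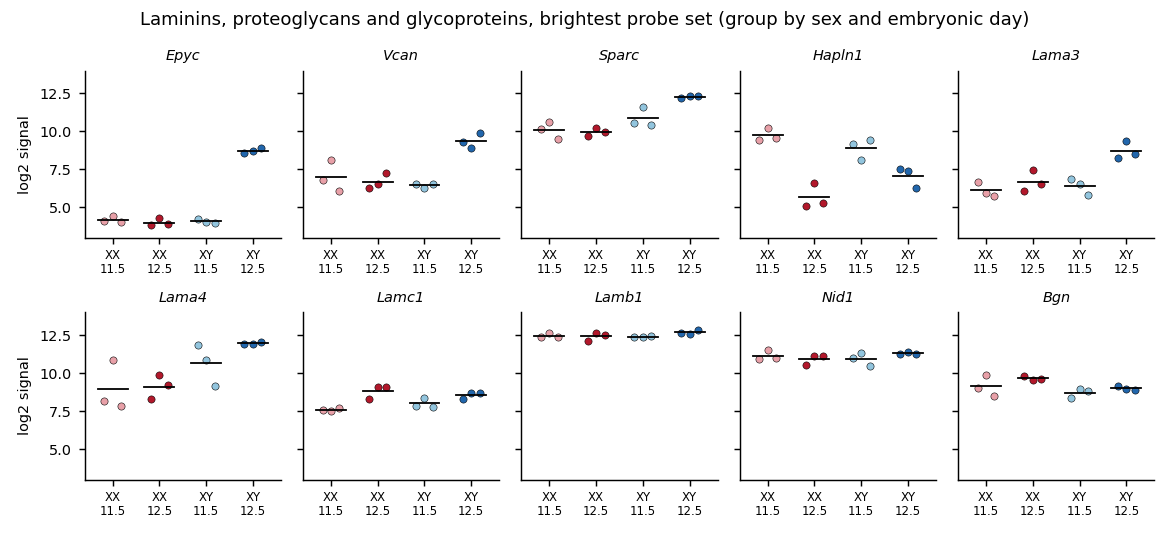
Log2 signal of 10 laminin, nidogen, proteoglycan and glycoprotein genes at their brightest probe set, 1 point per pool in pool order and a bar at the mean of the 3 pools. Epyc is at 3.82 to 4.40 in the other 3 groups and at 8.55 to 8.93 in XY at E12.5, while Lamb1 lies at 12.13 to 12.82 on every array.

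Promoter sequence is shown for genes whose sex difference grew between the days (the interaction, below 0.05 adjusted p and positive at the brightest probe set) and which the RefSeq promoter table holds. Each window runs from 250 bases before to 50 after an annotated start, 5′ to 3′ on the gene's strand, in build GRCm38.p6. The windows are chr10:97643818-97644117 and chr10:97646853-97647152 (plus strand, both Epyc), chr4:121039316-121039615 (plus, Col9a2), chr4:126286544-126286843 (plus, Col8a2) and chr13:89742463-89742762 (minus, Vcan). Capitals mark matches, on either strand, to AACAAT, a core of SOX-type sites, and to TGATAA or AGATAA for sites of the GATA type.
Epyc, first start: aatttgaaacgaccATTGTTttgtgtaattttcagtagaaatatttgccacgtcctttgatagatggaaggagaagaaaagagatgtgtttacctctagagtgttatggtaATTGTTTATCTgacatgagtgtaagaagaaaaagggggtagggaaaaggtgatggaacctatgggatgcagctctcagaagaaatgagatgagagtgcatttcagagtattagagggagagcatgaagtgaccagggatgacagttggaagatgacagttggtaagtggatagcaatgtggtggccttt
Epyc, other start: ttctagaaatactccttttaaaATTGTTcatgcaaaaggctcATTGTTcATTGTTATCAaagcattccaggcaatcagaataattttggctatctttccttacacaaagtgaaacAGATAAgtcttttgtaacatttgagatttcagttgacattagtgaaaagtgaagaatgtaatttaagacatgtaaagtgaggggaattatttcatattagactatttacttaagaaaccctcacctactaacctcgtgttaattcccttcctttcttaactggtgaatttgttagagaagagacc
Col9a2: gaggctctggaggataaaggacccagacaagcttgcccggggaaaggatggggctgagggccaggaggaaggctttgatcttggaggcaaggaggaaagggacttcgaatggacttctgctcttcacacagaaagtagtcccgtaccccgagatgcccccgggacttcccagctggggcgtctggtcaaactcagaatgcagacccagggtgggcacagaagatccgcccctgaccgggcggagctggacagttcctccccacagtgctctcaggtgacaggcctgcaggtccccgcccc
Col8a2: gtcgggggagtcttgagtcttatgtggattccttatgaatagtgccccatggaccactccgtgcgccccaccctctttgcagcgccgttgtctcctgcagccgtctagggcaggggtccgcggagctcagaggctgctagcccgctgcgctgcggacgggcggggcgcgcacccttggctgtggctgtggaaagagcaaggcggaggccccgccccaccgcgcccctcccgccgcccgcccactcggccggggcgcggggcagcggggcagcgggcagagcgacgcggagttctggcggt
Vcan: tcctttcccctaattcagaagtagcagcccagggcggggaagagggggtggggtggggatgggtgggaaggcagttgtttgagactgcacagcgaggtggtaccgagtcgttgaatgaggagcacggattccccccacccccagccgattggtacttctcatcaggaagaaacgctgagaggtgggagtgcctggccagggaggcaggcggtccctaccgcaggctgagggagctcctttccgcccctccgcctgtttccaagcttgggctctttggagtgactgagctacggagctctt
Both Epyc windows held SOX-type matches, at -236 and -139 from the first start and at -228, -208 and -201 from the other, and both held GATA-type matches (-134 from the first start, -197 and -135 from the other), of which those at -134 and -197 overlap a SOX-type match. The Col9a2, Col8a2 and Vcan windows held neither set of letters. Epyc windows were rich in A and T, with 40.3% and 32.3% G and C, against 61.0% to 71.7% in the other 3. Over all 32851 windows of the table, 10.7% held the SOX-type letters and 18.6% the GATA-type letters, and over the 39 windows of 34 member genes the counts were 5 and 3. These are matches of letters only.

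The classes were unequal in how many members were called at E12.5 and in which direction, against the 7.72% of all probe sets. FACIT collagens had calls at 6 of 18 probe sets (XY higher at 5 and lower at 1, median of the genes 0.10), and type VI and its relatives had 3 of 6, all lower (median -1.10). Fibrillar collagens had 2 of 7, both of Col27a1, and the median of that class was 0.03: the interstitial chains Col1a1, Col3a1 and Col5a1 differed by -0.11 to 0.22. Transmembrane collagens had 0 of 6 in limma (1 by unadjusted p under 0.05), and of these Col17a1, a hemidesmosome collagen, showed the largest difference, -1.48 (limma adjusted p = 0.142). Col4a4 of the basement membrane network had 0 of 2 (1 by unadjusted p) with means of 4.89 in XX and 5.22 in XY, near background. Over all collagens 14 of 47 probe sets (29.8%) were called, and over the non-collagen members 5 of 44 (11.4%), all 5 higher in XY. Some genes had several called probe sets. Counted by gene, 9 of 27 collagens (4 of 7 FACIT) and 4 of 20 non-collagen members had a call, beside 13.9% of all named genes. Laminins had 1 of 18 called (5.56%), near the share of all probe sets.

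**Figure D3:**
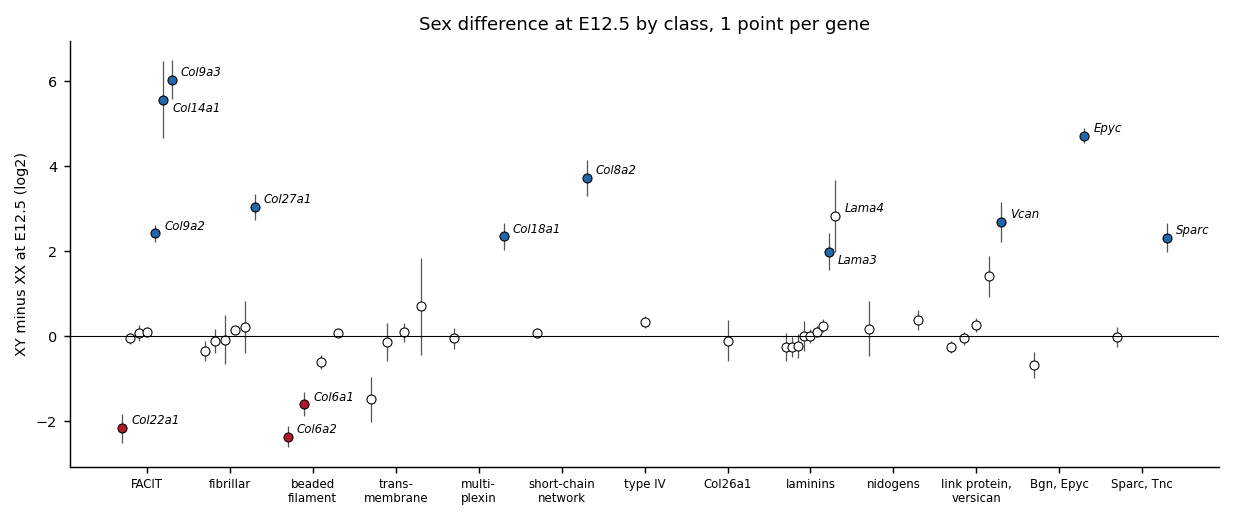
XY minus XX log2 difference at E12.5 for the 47 member genes at their brightest probe set, grouped by class, with bars of 1 SE from the fit. Filled points were called (blue higher in XY, red lower), open points were not; 10 genes were higher and 3 lower, the laminins other than Lama3 and Lama4 lie within 0.26 of 0, and both called type VI chains lie below -1.5.

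At E11.5 0 of 91 member probe sets were called between XY and XX in limma, beside 0.0678% of all probe sets (30 of 44238: 0.0543% higher and 0.0136% lower in XY). By unadjusted p under 0.05, 11 of the 91 member probe sets differed in limma, beside 6.81% of all probe sets. The XY and XX values did not overlap at 17 of the 91, beside 10.1% of all probe sets. The smallest adjusted p of a member was 0.0996, at the dimmer probe set of Col27a1, with a difference of 1.58 ± 0.26 (SE). At its brighter one, Col27a1 read 7.90, 7.75 and 7.40 in XX and 9.78, 9.01 and 8.31 in XY. Col9a3 read 6.80, 6.74 and 6.72 in XX and 9.49, 8.15 and 7.04 in XY. Col18a1 read 10.47, 10.27 and 9.49 in XX and 11.57, 11.37 and 10.44 in XY. At these brightest probe sets XY pool 1 was highest and XY pool 3 lowest. The mean of the 8 Sertoli markers had the same order in those pools (9.61, 8.96 and 8.38). Among these markers Dhh, Gdnf and Cbln4 ran in that order. Sox9 and Fgf9 were lowest in pool 2, and Amh, Ptgds and Sox10 were highest there. The dimmer probe set of Col27a1 did not keep the order of the mean, at 9.32, 8.34 and 8.63 in XY pools 1, 2 and 3. At the brightest probe sets of Col27a1, Col9a3 and Col18a1 the XX pools of E11.5 also ran from highest in pool 1 to lowest in pool 3. The Sertoli marker mean in those XX pools was 6.94, 7.09 and 6.87. Col14a1, Col8a2, Epyc and Lama3, also higher in XY at E12.5, kept this pool order in XY at E11.5. Col9a2, Vcan and Sparc did not. The part of the Sertoli markers in these values was not tested. Without XY E11.5 pool 3, Col27a1 was called (1.71, adjusted p = 0.0408), as was a dimmer probe set of Col9a3 (3.89, adjusted p = 0.0147).

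Epyc, Col8a2 and Vcan, among the genes higher in XY a day later, showed no such lead at E11.5. Epyc read 4.12, 4.40 and 4.02 in XX and 4.23, 4.04 and 3.94 in XY, all in the background range. Col8a2 read 5.60, 5.61 and 5.26 in XX and 5.29, 4.84 and 4.46 in XY. Vcan read 6.83, 8.13 and 6.05 in XX and 6.51, 6.30 and 6.54 in XY. The groups overlapped for all 3 genes, with limma adjusted p of 0.783 to 0.89. The type VI chains overlapped at E11.5 as well: Col6a2 read 9.73, 9.87 and 9.18 in XX and 9.35, 9.46 and 8.96 in XY, and Col6a1 read 9.95, 9.42 and 9.07 in XX and 9.12, 9.98 and 9.07 in XY.

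Between E11.5 and E12.5 in XX cells, transcripts of type VI collagen chains and laminin gamma 1 rose and those of the link protein Hapln1 fell. In all, 10 of 91 member probe sets were called over the day in XX (11%), 4 higher and 6 lower at E12.5, against 3.11% of all probe sets (1.69% higher and 1.43% lower). The 10 came from 6 genes. The days did not overlap at 22 of the 91 member probe sets, a smaller share than the 26.6% of all probe sets. The median over the 47 genes was 0.18, beside 0.06 over all probe sets. Type VI and its relatives had 3 of 6 probe sets called, all higher. FACIT collagens had 0 of 18 called in limma (2 by unadjusted p under 0.05), and fibrillar collagens 0 of 7 (1 by unadjusted p).

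Hapln1, the link protein that locks proteoglycans such as versican onto hyaluronan, had the largest change over the day in XX. It read 9.46, 10.20 and 9.57 at E11.5 against 5.09, 6.60 and 5.27 at E12.5. Every E12.5 value was far below every E11.5 value, and Hapln1 fell 17.0-fold (95% interval 7.96 to 36.3, limma adjusted p = 0.00484). All 4 probe sets were called, although the calls of 2 dimmer ones were each lost without any 1 array other than XY E12.5 pool 2 or pool 3 (adjusted p up to 0.16). In XY cells Hapln1 read 9.17, 8.14 and 9.46 at E11.5 against 7.54, 7.37 and 6.27 at E12.5, again without overlap, and the difference of -1.86 ± 0.49 (SE) was not called (limma adjusted p = 0.0539). It passed in XY without XY E11.5 pool 2 or XX E12.5 pool 2 (adjusted p of 0.0277 to 0.0426 over the alternatives that called it). At a dimmer probe set Hapln1 fell at least 4.32-fold in XY (limma adjusted p = 0.00662). The difference between the day changes of the sexes was 2.23 ± 0.70 (SE) and was not called (limma adjusted p = 0.157). Hapln1 and Vcan are neighbours in the genome, with no protein-coding gene between them, and Vcan in XX read 6.83, 8.13 and 6.05 at E11.5 against 6.30, 6.52 and 7.23 at E12.5, overlapping without a call.

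The type VI chains accounted for all 3 collagen calls over the day in XX. Col6a2 went from a mean of 9.59 ± 0.37 (SD, n = 3) to 11.71 ± 0.24, with no overlap, and rose 4.33-fold (95% interval 2.96 to 6.34, limma adjusted p = 0.00446) at both of its probe sets. Col6a1 went from 9.48 ± 0.44 to 11.39 ± 0.30, also without overlap, and rose 3.76-fold (95% interval 2.43 to 5.8, limma adjusted p = 0.0117). The Col6a1 call was lost without XX E12.5 pool 2 or pool 3 (adjusted p of 0.0532 and 0.0542). In XY the same 2 genes differed between the days by 0.10 and 0.40, and neither was called.

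Lamc1, the gamma 1 chain that most laminin trimers share, read 7.60, 7.51 and 7.70 in XX at E11.5 against 8.29, 9.06 and 9.09 at E12.5. The days did not overlap, and Lamc1 rose 2.31-fold (95% interval 1.61 to 3.32, limma adjusted p = 0.0285). Its dimmer probe set differed by -0.51 without a call, and the rise was lost without XX E11.5 pool 2, XX E11.5 pool 3, XX E12.5 pool 2 or XX E12.5 pool 3 (adjusted p of 0.0655 to 0.116). It was also lost in limma with the compared arrays alone (adjusted p = 0.0712). In XY, Lamc1 read 7.87, 8.37 and 7.78 at E11.5 against 8.29, 8.71 and 8.68 at E12.5, overlapping without a call. The interaction of Lamc1 was not called. Chains that can join Lamc1 in a trimer had no call over the day in XX: Lamb1 read 12.38, 12.64 and 12.36 at E11.5 against 12.13, 12.67 and 12.53 at E12.5, and Lama1, Lama5 and Lamb2 differed by -0.32 to 0.31 without a call. Lama4, another such chain, read 8.19, 10.86 and 7.82 at E11.5 against 8.30, 9.86 and 9.21 at E12.5.

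The remaining XX calls lay at dimmer probe sets of genes whose brightest one was not called. Sparc read 10.28, 10.75 and 10.41 at E11.5 against 9.32, 8.42 and 9.19 at E12.5 on such a probe set, a difference of -1.50 ± 0.30 (SE, limma adjusted p = 0.0324), while its brightest differed by -0.11. Nid1 read 6.08, 6.68 and 6.84 at E11.5 against 5.79, 5.37 and 5.59 at E12.5 on a dimmer probe set, a difference of -0.95 (limma adjusted p = 0.042), while its brightest differed by -0.20. The Nid1 call was lost without pool 2 or pool 3 of any group (adjusted p of 0.0508 to 0.147). The Sparc call was lost without pool 2 or pool 3 of XX at either day, or without XY E12.5 pool 3 (adjusted p of 0.0505 to 0.111). The count of 10 depended on single pools: 5 member probe sets were called without XX E11.5 pool 2 or without XX E11.5 pool 3, and 4 without XX E12.5 pool 2 or without XX E12.5 pool 3. The 5 called without XX E11.5 pool 2 belonged to Col6a2, Col6a1 and Hapln1.

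In XY cells Col9a2, Col9a3, Col14a1, Col27a1, Col18a1, Col8a2, Epyc, Vcan, Sparc and Lama3 rose between E11.5 and E12.5, and Col23a1 fell. Hapln1 was called lower at 1 dimmer probe set of 4 and not at its brightest. Over the day 17 of 91 member probe sets were called (18.7%), 14 higher and 3 lower at E12.5, against 6.16% of all probe sets (3.18% higher and 2.98% lower). They came from 12 genes, and the median over the 47 genes was 0.29 beside 0.02 over all probe sets. The values of the days did not overlap at 37 of the 91 member probe sets, beside 26.8% of all probe sets. FACIT collagens had 5 of 18 called, all higher, fibrillar collagens 2 of 7, the multiplexins 2 of 3, transmembrane collagens 2 of 6, both lower, and type VI and its relatives 0 of 6 in limma, with 0 also by unadjusted p under 0.05. The XY arrays of E12.5 also enter the sex comparison at that day, and their values stand there.

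Col9a3 rose 27.1-fold in XY (95% interval 13.4 to 54.6, limma adjusted p = 0.000314) from 9.49, 8.15 and 7.04 at E11.5. Its log2 change was 4.76; leaving out XY E11.5 pool 1 gave 5.39, and leaving out pool 3 gave 4.16. Col9a2 read 6.05, 6.58 and 5.97 at E11.5, all below the E12.5 values, and rose 5.12-fold (95% interval 3.68 to 7.13, limma adjusted p = 0.000236). Col14a1 read 8.13, 7.32 and 7.31 at E11.5 and rose 23.8-fold (95% interval 5.95 to 95.3, limma adjusted p = 0.0162), a call lost without XY E11.5 pool 3 or XY E12.5 pool 3 (adjusted p of 0.0609 and 0.0628). In XX these 3 genes differed over the day by 0.20, 0.48 and 0.41, and none was called in limma. The Col14a1 value in XX rested on pool 2 of E11.5, which read 8.39 against 5.32 and 4.83, and without that pool it was 1.52, also not called (adjusted p = 0.277).

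Epyc and Col8a2 started in or near the background range in XY at E11.5. Epyc rose at least 25.1-fold (limma adjusted p = 7.99e-07) and Col8a2 at least 18.5-fold (limma adjusted p = 0.00047). Vcan rose 7.67-fold (95% interval 3.74 to 15.7, limma adjusted p = 0.00574) from 6.51, 6.30 and 6.54, and its E11.5 pools were close together. Col18a1 rose 4.65-fold (limma adjusted p = 0.00296) and Col27a1 4.43-fold (limma adjusted p = 0.00336). At the brightest probe set of each, the XY E11.5 values followed the order of the Sertoli marker mean. The XX pools of E11.5 ran in the same pool order for both genes.

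Lama3 read 6.85, 6.51 and 5.82 in XY at E11.5 and rose 4.91-fold (95% interval 2.51 to 9.6, limma adjusted p = 0.0136), a call lost without XY E11.5 pool 3 (adjusted p = 0.0564). The dimmer Lama3 probe set, with means of 5.73 at E11.5 and 5.61 at E12.5, was not called. Lamb3, the beta chain that joins Lama3 in its trimer, read 5.02, 5.56 and 5.14 at E11.5 against 5.41, 5.79 and 5.58 at E12.5, overlapping and near background. Sparc read 10.55, 11.61 and 10.42 at E11.5. At 1 of its 3 probe sets, the brightest, it rose 2.69-fold (95% interval 1.59 to 4.55, limma adjusted p = 0.036). That call was lost without XX E11.5 pool 1, XY E11.5 pool 1, XY E11.5 pool 3 or XX E12.5 pool 3. It was also lost without any 1 XY pool of E12.5 (adjusted p of 0.0527 to 0.13 over these fits). The next brightest Sparc probe set, with means of 10.87 at E11.5 and 11.37 at E12.5, was not called. Leaving out XY E11.5 pool 3 brought the count of 17 to 10, of which Col9a3, Col9a2, Col27a1, Col18a1, Col8a2, Epyc, Vcan and a dimmer probe set of Hapln1 made up the whole.

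Col23a1, a transmembrane collagen, fell over the day. In XY it read 8.85, 9.51 and 9.26 at E11.5 against 8.32, 7.90 and 8.10 at E12.5, a 2.14-fold fall without overlap (95% interval 1.51 to 3.05, limma adjusted p = 0.0203) at 2 of its 3 probe sets. In XX it read 8.66, 9.21 and 8.98 at E11.5 against 8.28, 7.63 and 8.14 at E12.5, also without overlap, with a difference of -0.93 (limma adjusted p = 0.0557). The difference between these changes was -0.17 (95% interval -0.88 to 0.55, limma adjusted p = 0.86). The XY call was lost without XY E11.5 pool 2, XY E11.5 pool 3, XY E12.5 pool 2 or XY E12.5 pool 3 (adjusted p of 0.0545 to 0.0711), and the XX change was called without XX E11.5 pool 1 or XY E11.5 pool 1. Col22a1 read 6.74, 7.43 and 7.30 in XY at E11.5 and differed by -1.26 at E12.5, which was not called (limma adjusted p = 0.0579) although the days did not overlap. It was called without XX E11.5 pool 2 (adjusted p = 0.0459) or without XX E11.5 pool 3.

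The interaction asks of each gene whether the sex difference at E12.5 exceeded that at E11.5. Of the 91 member probe sets 8 were called (8.79%), 6 positive and 2 negative, against 1.75% of all probe sets (0.796% positive and 0.954% negative). The 6 positive calls were Epyc at 4.83 ± 0.24 (SE, limma adjusted p = 2.29e-05), Col9a3 at 4.56 ± 0.64 (limma adjusted p = 0.00669), Col8a2 at 4.35 ± 0.61 (limma adjusted p = 0.00638), Vcan at 3.26 ± 0.66 (limma adjusted p = 0.0388), Col9a2 at 1.88 ± 0.30 (limma adjusted p = 0.0137) and a dimmer probe set of Sparc at 2.00 ± 0.43 (limma adjusted p = 0.04998). Both negative calls were of Col6a2, at -2.02 ± 0.35 (limma adjusted p = 0.0191) and -1.37 ± 0.27 (limma adjusted p = 0.0364). For Epyc, Col9a3, Col8a2, Vcan and Col9a2 the change over the day was called in XY and not in XX, and for Col6a2 in XX and not in XY. Col14a1, Col27a1, Col18a1, Col6a1 and Col22a1 had interactions of 4.16, 1.69, 1.30, -1.51 and -1.94 that were not called (limma adjusted p of 0.0803 to 0.191), so a change of their sex difference over the day was not shown.

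Several interaction calls were lost on leaving out 1 array. For Vcan it was kept without XX E11.5 pool 2, XX E11.5 pool 3 or XY E12.5 pool 2 and lost without any 1 of the other 9 arrays (adjusted p of 0.0505 to 0.0977). For Col6a2 it was lost at the brightest probe set without XY E11.5 pool 2 or XX E12.5 pool 3 (adjusted p of 0.0578 and 0.0572) and at the dimmer one without any of 9 arrays. The Sparc call, just under the threshold, was lost without any of 11 arrays, XY E11.5 pool 1 being the exception. Epyc, Col9a3, Col8a2 and Col9a2 kept theirs without any 1 array, with adjusted p of at most 0.0382 over the alternatives.

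**Figure D4:**
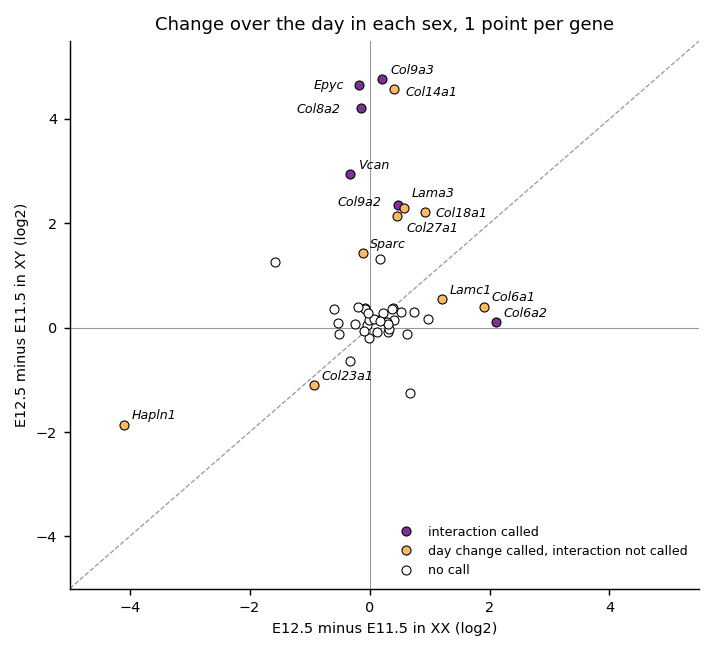
Log2 change from E11.5 to E12.5 in XX (horizontal) and in XY (vertical) for the 47 member genes at their brightest probe set, with a dashed line where both are equal. Epyc, Col9a3, Col8a2 and Vcan lie high above 0 in XY with changes of -0.32 to 0.20 in XX, Col6a2 lies at 2.11 in XX and 0.10 in XY, and Hapln1 lies at -4.09 in XX and -1.86 in XY.

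Pool 2 of XX at E11.5 read over 1 log2 unit above the higher of the other 2 pools of its group at 9 of the 91 member probe sets (9.89%), where 3.56% of all probe sets did so. Counted at the brightest probe set these were 8 of the 47 member genes (17.0%), beside 4.24% of all named genes. The gap was 4.88 for Col25a1, a transmembrane collagen of neurons, 3.07 for Col14a1, 2.67 for Lama4, 2.03 for Nid2, 1.95 for Col1a1, 1.92 for Col26a1, 1.88 for Col3a1 and 1.30 for Vcan. Col25a1, Nid2, Col1a1, Col26a1 and Col3a1 were higher in that pool than on any of the other 11 arrays. Col17a1 was the 1 member that far below, at 5.36 against 6.38 and 7.96. The 10 endothelial markers were each highest in the same pool, as was the mean of the 6 mesenchyme markers. Of these 6, Tcf21, Dcn and Lum were highest there, while Pdgfra, Nr2f2 and Maf were each higher on another array. The part of either list in these values was not tested. Without that pool the difference over the day in XX was 0.13 in place of -1.57 for Col25a1, 1.12 in place of 0.17 for Lama4 and 0.24 in place of -0.32 for Vcan, and none was called either way in limma.

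**Figure D5:**
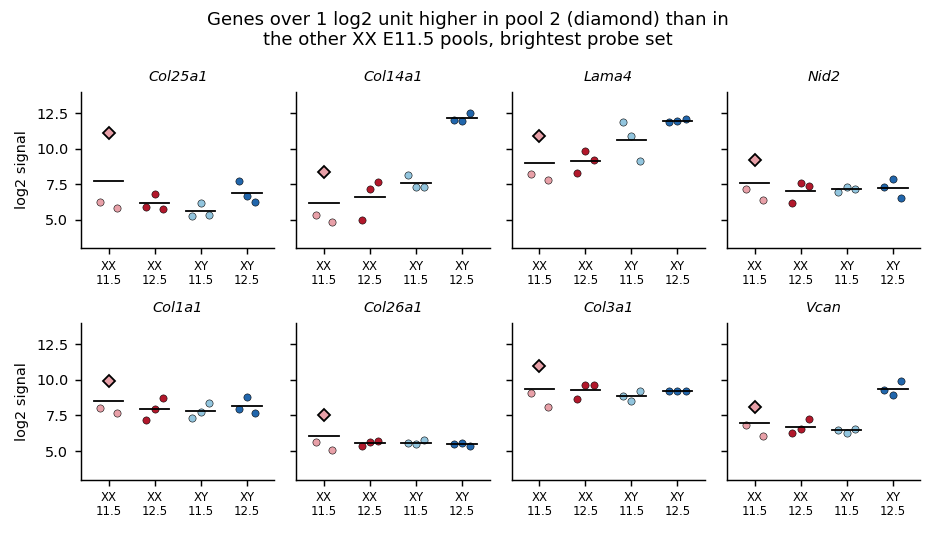
Log2 signal of the 8 member genes that read over 1 log2 unit higher in pool 2 of XX at E11.5 (diamond) than in the other pools of that group, 1 point per pool and a bar at the group mean. Col25a1 reads 11.11 in that pool and at most 7.73 on the other arrays, while Col14a1, Lama4 and Vcan are higher still in XY at E12.5.

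Of the 47 genes, 30 were called in none of the 5 comparisons. Among these, Col12a1, Col24a1, Col6a5 and Tnc had no group mean above the background range. Others were bright, such as Lamb1 at 12.13 to 12.82. The interstitial fibrillar chains Col1a1 and Col3a1, made mainly by mesenchyme, had group means of 7.81 to 8.55 and 8.85 to 9.38, with the highest value of each in pool 2 of XX at E11.5. Col17a1 read 8.06, 7.07 and 7.46 in XX at E12.5 and 6.41, 6.07 and 5.68 in XY, not overlapping and not called, and it was called without XX E11.5 pool 3.

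Enzymes that fold, modify and cross-link collagen were mostly not called, and those called at E12.5 were higher in XY. Of 27 such genes 24 were measured, and 5 had a called probe set at E12.5 (20.8%), all higher in XY, beside 13.9% of all 17996 named genes (7.1% with a higher one). At the brightest probe set 4 were called (16.7%), beside 11.1% of all named genes, with a median of 0.22 over the list beside -0.004 over all probe sets. Loxl3, a lysyl oxidase that starts collagen cross-links, was 3.82-fold higher (limma adjusted p = 0.00122), with means of 8.21 ± 0.07 (SD, n = 3) in XX and 10.14 ± 0.16 in XY. P4ha1, a catalytic subunit of prolyl 4-hydroxylase, which stabilises the triple helix, read 9.63, 9.55 and 9.74 in XX and 11.31, 11.43 and 11.36 in XY, 3.32-fold higher (limma adjusted p = 0.012). Its partner subunit P4hb was 1.77-fold higher (limma adjusted p = 0.0382) and Colgalt1, which glycosylates hydroxylysine, 2.19-fold (limma adjusted p = 0.00975). From E11.5 to E12.5 the P4ha1 mean went from 10.59 to 9.64 in XX and from 11.19 to 11.37 in XY. The P4hb mean went from 13.32 to 12.47 in XX and from 13.20 to 13.29 in XY. Neither gene was called over the day in either sex. Plod2, a lysyl hydroxylase, was called at its dimmer probe set alone, 3.77-fold higher (limma adjusted p = 0.000501).

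Over the day in XY, 5 of the 24 had a called probe set (20.8%), beside 10.7% of all named genes, and 3 were called at the brightest one (12.5%), beside 7.01%. Colgalt1, Loxl3 and dimmer probe sets of Plod2 and Pcolce rose and Colgalt2 fell, by 1.56, 1.42, 1.38, 1.31 and -1.20 on the log2 scale (limma adjusted p of 0.00264 to 0.0357). The brightest Plod2 probe set went the other way without a call, with XY means of 10.63 at E11.5 and 9.58 at E12.5. Of 15 receptors for collagen and laminin 14 were measured, and the 2 with a called probe set at E12.5 (14.3%) are near the 13.9% of all named genes. The collagen receptor Ddr1 was higher in XY at E12.5 at 1 of its 8 probe sets (0.68, limma adjusted p = 0.0325), and the laminin-binding integrin chain Itga6 was lower at 1 of 2 (-1.0, limma adjusted p = 0.0139). Both were dimmer probe sets, and the brightest ones of these receptors were not called. The 2 lists were drawn up with earlier results of these data known.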

How the data were processed

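Total RNA of 12 pools was extracted with PicoPure reagents, put through 2 rounds of amplification and labelled with biotin, per the labels' protocols. The authors deposited 1 table of log2 values per probe set and array. Neither the summarisation and normalization nor the log base is given in the sources used here, and log2 was read from the range of the values. Array medians ran from 6.494 to 6.592, no 2 arrays were identical (correlations of 0.9046 to 0.9836), and 3 arrays per group limit the precision.

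Of 45037 probe sets, 798 were blank on every array and 1 on some. Of the 44238 tested, 34328 had 1 symbol, 850 several and 9060 none. Symbols came from the probe annotation. Entrez identifiers matched 34126 to the RefSeq table of GRCm38.p6, whose symbols were then used; no member's symbol changed.

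The fit was limma 3.58.1 under R 4.3.3, with 4 group means, lmFit and eBayes (8 residual and 2.11 prior degrees of freedom), two-sided tests and Benjamini-Hochberg adjustment over all 44238 probe sets. All adjusted p-values are from limma. Folds are 2 raised to the log2 difference. The fit was tested on simulated data before use, without the interaction.

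Every gene with a called probe set is named, and values per array are given for up to 12 called genes per comparison and for uncalled partner chains. Members with large readings in 1 pool were chosen after their values were seen. Members, classes, lists and tests were chosen with earlier results of these data known. Figures were drawn with matplotlib 3.10.9. Alternatives were quantile normalization, a filter to brighter probe sets, array weights, median centring, a prior variance fitted to the mean level, pool number as a block, the compared arrays alone, 1 or the mean probe set per gene, a 2-fold minimum, and each array left out. A comparison of protein sequences was not run.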

Additional observations from a re-analysis of the deposited data

Results flagged for a closer look

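For 8 member probe sets the difference between XY and XX itself differed between E11.5 and E12.5, by the interaction term of the limma fit. It was positive, a larger excess in XY at E12.5, for Epyc (4.83), Col9a3 (4.56), Col8a2 (4.35), Vcan (3.26), a dimmer probe set of Sparc (2.00) and Col9a2 (1.88). It was negative for both probe sets of Col6a2, at -2.02 on the brightest and -1.37 on the dimmer.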

How the results depend on the processing

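Of 54 called results of named genes, 35 kept their call under every alternative run, 19 lost it under at least 1, and 0 changed direction. Of the 201 results not called, 14 were called under at least 1 alternative. The member probe sets called between XY and XX at E11.5 numbered 0 in limma (11 by unadjusted p under 0.05), 0 to 2 on leaving out 1 array (2 without XY E11.5 pool 3) and 0 otherwise. At E12.5 they numbered 19, 18 to 21 on leaving out 1 array and 13 to 23 otherwise. Over the day in XX they numbered 10, 4 to 9 on leaving out 1 array, 5 with 1 probe set per gene and 5 with each gene's probe sets averaged, where fewer features were counted. Over the day in XY they numbered 17, 10 to 18 on leaving out 1 array and 12 to 18 otherwise. For the interaction they numbered 8, 4 to 9 on leaving out 1 array (4 without XY E11.5 pool 2 or XX E12.5 pool 3) and 6 to 10 otherwise.

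Deviations from the group means of same-numbered arrays correlated at -0.398 to 0.235 (18 pairs, median 0.042). Those of differently numbered arrays correlated at -0.36 to 0.396 (36 pairs, median -0.024). With so few pools per group, the deviations within a group depend on each other, because they cancel out. The check therefore cannot decide whether pools of the same number belong together, for example by litter. With the pool number as a replicate block, the calls numbered 0 for XY against XX at E11.5, 19 for the same at E12.5, 8 over the day in XX, 16 over the day in XY and 6 for the interaction. With probe sets averaged, Vcan's sex difference at E12.5 was 0.51 and Lamc1's difference over the day in XX was 0.35; none of their dimmer probe sets was called in these comparisons in limma.

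Members without a call may still differ, since 3 pools per group limit what the test can find. Probe sets near the background range give bounds, and 15 member probe sets had no group mean above it.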
